A study of Homo sapiens with 2 samples.

Results

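The long arm of chromosome 6 (6q) was examined in ATAC-seq peak lists of RPMI-8402 and Jurkat, both established human cell lines of T-ALL. T-ALL is acute lymphoblastic leukaemia of the T lineage, in which precursors of T cells multiply. ATAC-seq uses the transposase Tn5, which cuts and tags DNA where chromatin is accessible, and its peaks mark such places. All peaks with a summit on chromosome 6 from position 61000000 to 171115067 of hg19 were taken, which gave 725 of 24603 peaks in RPMI-8402 and 809 of 25189 peaks in Jurkat on chromosomes 1 to 22, X and Y. Each line was represented by 1 library. Per the labels, both lines were grown in RPMI-1640 medium with tetracycline-free serum, and no drug, genotype change or time point is named for either. No value below carries a replicate error, no difference was tested between the lines, and intervals cover counting error only. PCR copies among the fragments would make these intervals too narrow. Which genes, exons or UTRs the regions lie in, and the T-cell marker genes of the lines, were not analysed here, because no gene positions on hg19 were used.

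Loss of part of 6q is a recurrent chromosome change in T-ALL, and the search for tumour suppressors within it has a long history. The arm also carries genes of blood cell development, among them MYB, a transcription factor of immature blood cells, and PRDM1, a transcriptional repressor of lymphocyte differentiation. The number of ATAC fragments over a site depends on how open the site is and on how many copies of it the cells carry. A peak list alone cannot tell these apart.

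RPMI-8402 had fewer peaks than Jurkat on 6q, and the shortfall was concentrated between 75 and 105 Mb. Over the whole arm the ratio of peak numbers, RPMI-8402 over Jurkat, was 0.896 (95% exact interval 0.810 to 0.992), against 0.969 on the other autosomes and 0.996 on 6p, where 701 peaks were called in RPMI-8402 and 704 in Jurkat. In the stretch from 75 to 105 Mb, RPMI-8402 had 105 peaks and Jurkat 193, which is a ratio of 0.544 (0.425 to 0.694). On the rest of 6q there were 620 and 616, a ratio of 1.01 (0.899 to 1.13). The stretch was delimited by ratios of pileup, the fragment count at a peak's summit, which are described further on and are not independent of the peak number, so these counts describe it and test nothing. Peak density in the stretch was 3.50 per Mb in RPMI-8402 and 6.43 per Mb in Jurkat, while on the rest of the arm it was 7.74 and 7.69 per Mb. Peaks of the stretch covered 79.9 kb in RPMI-8402 and 118 kb in Jurkat, and those of the rest of the arm 458 and 408 kb.

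All 6 bins of 5 Mb in the stretch held fewer RPMI-8402 than Jurkat peaks. The bin at 75 to 80 Mb held 11 RPMI-8402 and 19 Jurkat peaks, and the bin at 80 to 85 Mb held 20 and 29. At 85 to 90 Mb the numbers were 21 in RPMI-8402 and 40 in Jurkat, a ratio of 0.525 (0.294 to 0.912). The deficit continued with 24 against 34 peaks at 90 to 95 Mb and 20 against 33 at 95 to 100 Mb. It was deepest at 100 to 105 Mb, with 9 RPMI-8402 and 38 Jurkat peaks and a ratio of 0.237 (0.101 to 0.498). Among the 17 other bins of the arm the ratio ran from 0.724 to 1.71 and lay below 1 in 8. Its interval excluded 1 in 0 of these 17 bins and in 2 of the 6 bins of the stretch. The bins of the stretch were chosen for low ratios of pileup, so this contrast describes them and tests nothing. The lowest of the other bins, at 105 to 110 Mb, lay next to the stretch and held 42 RPMI-8402 and 58 Jurkat peaks. The highest, at 120 to 125 Mb, held 36 RPMI-8402 and 21 Jurkat peaks. Between 135 and 140 Mb, where RPMI-8402 had the most peaks of any bin, 65 stood against 59 in Jurkat.

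**Figure D1:**
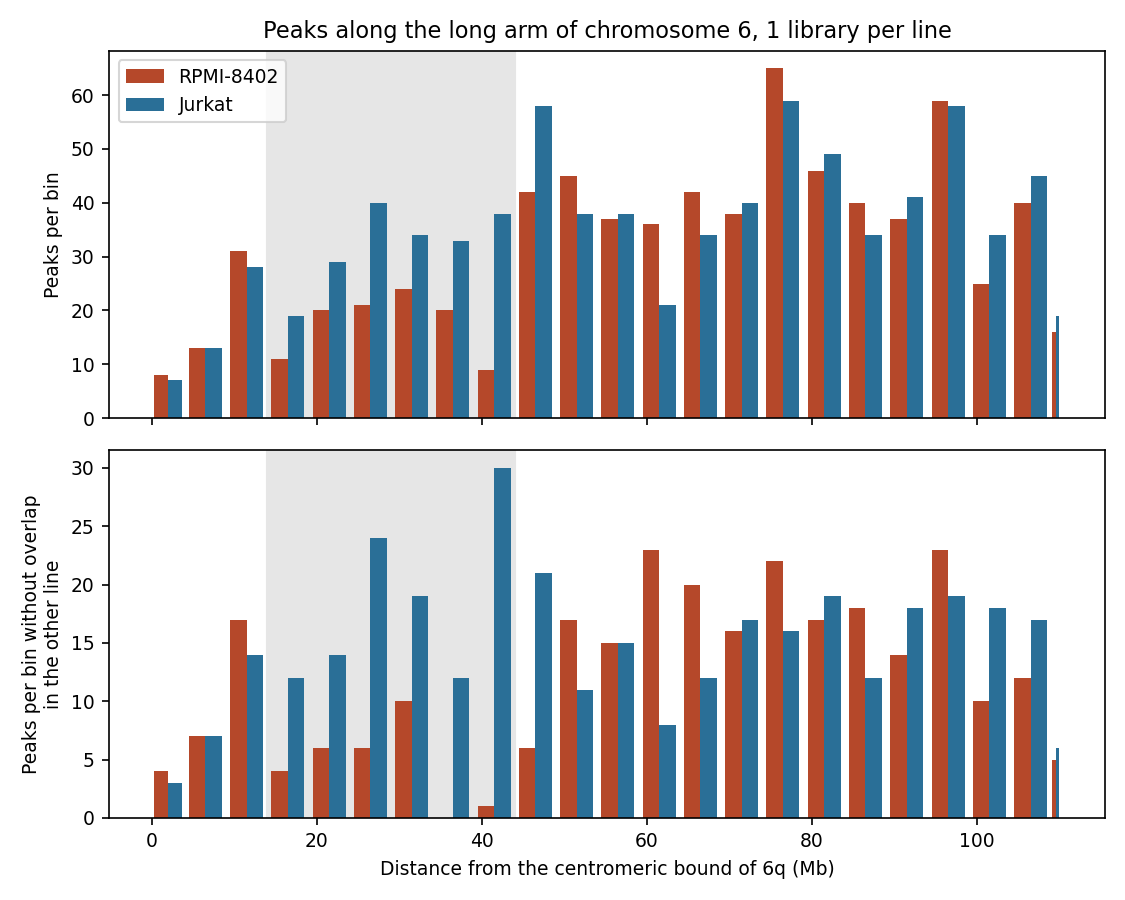
Number of peaks per bin in RPMI-8402 (red) and Jurkat (blue), all peaks above and peaks without overlap in the other line below, against the distance in Mb from the lower bound of 6q. Bins are 5 Mb long except the first (4 Mb) and the last (1.1 Mb), and the shaded stretch at 14 to 44 Mb, which is 75 to 105 Mb of the chromosome, has fewer RPMI-8402 than Jurkat peaks in all of its 6 bins.

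Peaks were called shared where they overlapped a peak of the other line by at least 1 bp. On 6q, 452 of 725 RPMI-8402 peaks were shared, a share of 62.3% (95% exact binomial interval 58.7 to 65.9%), and 465 of 809 Jurkat peaks, a share of 57.5% (54.0 to 60.9%). The peaks without a partner were thus 273 (37.7%) in RPMI-8402, against a background of 31.9% over all chromosomes, and 344 (42.5%) in Jurkat, against a background of 32.6%. On 6p, 210 of 701 RPMI-8402 peaks and 204 of 704 Jurkat peaks lacked a partner. The merged lists held 1068 regions on the arm. Both lines had a peak in 451 of them (42.2%), RPMI-8402 alone in 273 and Jurkat alone in 344.

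Shared peaks were the stronger and wider ones. In RPMI-8402 the shared peaks of 6q had a median pileup of 54.5 and the unshared ones of 19, with median widths of 791 and 479 bp. In Jurkat the shared ones had a median pileup of 67 and the unshared ones of 19, with median widths of 769 and 384.5 bp.

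Sharing in the stretch was lopsided. There, 78 of 105 RPMI-8402 peaks (74.3%, 64.8 to 82.3%) overlapped a Jurkat peak, but only 82 of 193 Jurkat peaks (42.5%, 35.4 to 49.8%) overlapped an RPMI-8402 peak. On the rest of 6q the shares were close together, 60.3% (56.3 to 64.2%) in RPMI-8402 and 62.2% (58.2 to 66.0%) in Jurkat. Both lay below the shares over all chromosomes, 68.1% in RPMI-8402 and 67.4% in Jurkat. All 20 RPMI-8402 peaks at 95 to 100 Mb were shared, beside 21 of 33 Jurkat peaks there. In the bin at 100 to 105 Mb, 8 of 9 RPMI-8402 peaks and 8 of 38 Jurkat peaks were shared. The reverse pattern was seen at 120 to 125 Mb, where 13 of 36 RPMI-8402 peaks (36.1%) and 13 of 21 Jurkat peaks (61.9%) were shared.

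In every strength class, a smaller share of Jurkat peaks was shared in the stretch than over all chromosomes. The interval excluded the share over all chromosomes in the weakest and second classes only. The stretch was delimited by low ratios of pileup, and the sharing of weak Jurkat peaks is not independent of these. The shares therefore describe the stretch and test nothing. The authors' −log10 q was used to split each whole list into 4 equally large strength classes. In the weakest class, 7 of 64 Jurkat peaks of the stretch (10.9%, 4.51 to 21.2%) were shared, against 27.6% (20.9 to 35.1%) on the rest of 6q and 31.2% over all chromosomes. The second class showed the widest gap, with 9 of 53 shared (17.0%, 8.07 to 29.8%) in the stretch and 80 of 157 (51.0%, 42.9 to 59.0%) on the rest of the arm, beside 54.9% over all chromosomes. In the third class, 16 of 23 (69.6%, 47.1 to 86.8%) were shared in the stretch. The share was 77.4% on the rest of 6q and 85.6% over all chromosomes. In the strongest class the shares were 94.3% (84.3 to 98.8%) in the stretch and 95.1% (90.6 to 97.9%) on the rest of 6q, beside 98.1% over all chromosomes. Jurkat-only peaks were weak throughout: their median pileup was 17 in the stretch, 20 on the rest of 6q and 19 over all chromosomes, and 7 of 111 in the stretch and 22 of 233 on the rest of 6q had a pileup of 50 or more. In RPMI-8402 the weakest class was shared at similar rates, 6 of 20 peaks in the stretch and 57 of 195 on the rest of the arm, with 34.2% over all chromosomes. The second class had 14 of 20 in the stretch and 61 of 127 (48.0%) on the rest of the arm, with 58.0% over all chromosomes. The third class had 27 of 33 in the stretch and 106 of 140 on the rest of the arm, with 83.6% over all chromosomes. RPMI-8402 peaks of the strongest class were shared in 31 of 32 cases in the stretch and 150 of 158 on the rest of 6q, with 96.7% over all chromosomes. The weakest pileup called anywhere on the arm was 10 in RPMI-8402 and 9 in Jurkat, so a site whose signal fell under these levels would have no peak.

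**Figure D2:**
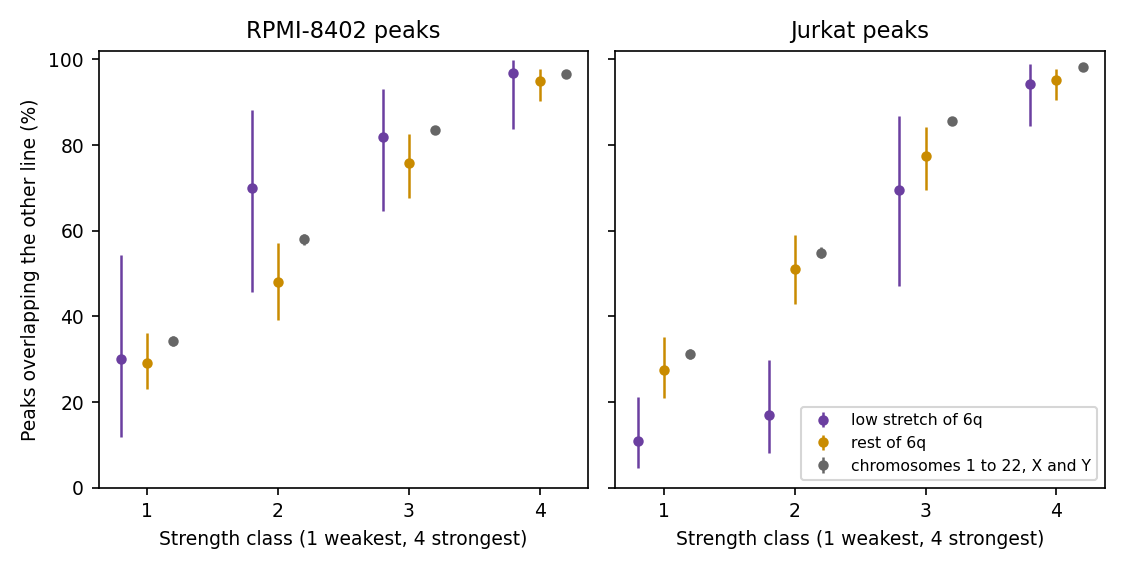
Share of peaks overlapping a peak of the other line, by strength class (1 weakest, 4 strongest; classes of equal size over each whole list), for RPMI-8402 peaks on the left and Jurkat peaks on the right. Points are the low stretch of 6q, the rest of 6q and all chromosomes, with exact 95% binomial intervals, and the Jurkat peaks of the stretch in the second class were shared in 17.0% of cases against 51.0% on the rest of 6q.

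Signal was compared at the 436 places on 6q where 1 RPMI-8402 peak overlapped exactly 1 Jurkat peak. The authors' fold enrichment at the summit, their peak width and the summit pileup solved from fold and p-value were each expressed as a log2 ratio of RPMI-8402 to Jurkat and centred on the median of the genome's pairs outside chromosome Y, which together with those on Y number 16494. The medians subtracted were −0.24 for fold, 0.05 for width and −0.17 for pileup. Over the whole arm the median fold was 8.89 in RPMI-8402 and 10.1 in Jurkat, a centred log2 ratio of 0.01 (25th to 75th percentile −0.17 to 0.24). Widths had medians of 773 bp in RPMI-8402 and 770.5 bp in Jurkat, and a centred log2 ratio of −0.01 (−0.22 to 0.24). The median pileup was 53 in RPMI-8402 and 66 in Jurkat, with a centred log2 ratio of −0.14 (−0.62 to 0.35). Fold and width thus lay close to the genome's median, while the pileup lay below it.

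By counts, 249 of the 436 pairs (57.1%) had a centred pileup ratio below 0, against a background of 49.9%. At least 2-fold lower pileups in RPMI-8402 were found in 54 pairs (12.4%, background 4.89%), and at least 2-fold higher ones in 34 (7.80%, background 9.21%). Fold was at least 1.5-fold lower in RPMI-8402 in 16 pairs (3.67%, background 3.16%) and at least 1.5-fold higher in 42 (9.63%, background 7.51%). For width these numbers were 31 lower (7.11%, background 5.86%) and 41 higher (9.40%, background 11.4%). The share furthest above its background was that of the lower pileups, and higher folds, lower folds and lower widths also exceeded theirs.

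The low pileup ratios came largely from the 75 to 105 Mb stretch. Of the 22 bins of 6q with at least 5 pairs, 6 had a median centred log2 pileup ratio of −0.5 or less, against a background of 5.79% of 570 bins genome-wide, and these 6 were consecutive. None of the 22 reached 0.5 or more, a level passed by 6.32% of all bins. The 74 pairs of the stretch had a median pileup of 53.5 in RPMI-8402 and 105 in Jurkat, a centred log2 ratio of −0.90 (−1.16 to −0.37) or a linear ratio of 0.537. Of these pairs, 65 (87.8%) were below 0, and 31 (41.9%) were at least 2-fold lower in RPMI-8402. On the rest of 6q, the 362 pairs had medians of 53 in RPMI-8402 and 57.5 in Jurkat, a centred log2 ratio of −0.01 (−0.44 to 0.44), with 184 (50.8%) below 0 and 23 (6.35%) at least 2-fold lower. The median RPMI-8402 pileup of the pairs was thus similar in both parts of the arm, while the Jurkat median was higher in the stretch.

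Bin by bin, the pairs at 75 to 80 Mb had median pileups of 66 in RPMI-8402 and 117 in Jurkat, a centred log2 ratio of −0.78 over 7 pairs. The pairs at 80 to 85 Mb had 58 and 109, a ratio of −1.04 (−1.16 to −0.98) over 13 pairs. At 85 to 90 Mb the medians were 52 in RPMI-8402 and 132.5 in Jurkat, and the ratio of −1.13 (−1.41 to −0.86) over 14 pairs ranked 1 from the bottom among all 570 bins. The 80 to 85 Mb bin ranked 2. The shift was smaller at 90 to 95 Mb, with 31 against 54 and a ratio of −0.50 over 13 pairs. It was −0.84 over 19 pairs at 95 to 100 Mb (65 in RPMI-8402, 135 in Jurkat) and −0.57 over 8 pairs at 100 to 105 Mb (36 in RPMI-8402, 73.5 in Jurkat). In the 16 other bins of the arm the median ratio stayed between −0.27 and 0.20. Each bin of the stretch holds fewer than 20 pairs, and leaving out 1 bin at a time kept the median of the stretch between −0.98 and −0.79. Every bin was chosen for a median of −0.5 or less, so this range had to stay low and tests nothing.

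The deposited fold, which divides pileup by background, did not show the stretch, since both moved together. The background that MACS2 uses at a summit, solved together with the pileup, is known to reflect fragments in a window around the peak. In the stretch it had a median of 3.86 fragments per base in RPMI-8402 and 7.47 in Jurkat, a centred log2 ratio of −0.96 (−1.22 to −0.67), close to that of the pileup. The fold had medians of 10.2 in RPMI-8402 and 12.3 in Jurkat, a centred log2 ratio of −0.02 (−0.20 to 0.18). Bin medians of the fold ran from −0.16 to 0.04 in the stretch and from −0.09 to 0.16 elsewhere on the arm. By fold, 1 of the 74 pairs (1.35%, background 3.16%) was at least 1.5-fold lower in RPMI-8402. At least 1.5-fold higher were 6 (8.11%, background 7.51%). The solved background was at its genome-wide minimum in 26 of 105 RPMI-8402 peaks (24.8%) and 50 of 193 Jurkat peaks (25.9%) of the stretch, against 12.7% and 11.4% on the rest of 6q. The window around a summit includes the peak itself, so pileup and background are not separate measurements. The width ratio was slightly lower in the stretch, with medians of 766 bp in RPMI-8402 and 846.5 bp in Jurkat and a centred log2 ratio of −0.15 (−0.34 to 0.06). Pairs on the rest of 6q had median widths of 782 bp in RPMI-8402 and 733 bp in Jurkat. All 6 bin medians of the width ratio in the stretch were below 0, from −0.31 to −0.06. In the 16 other bins they ran from −0.12 to 0.18. Whether the lines differ in the number of copies of this stretch was not tested.

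**Figure D3:**
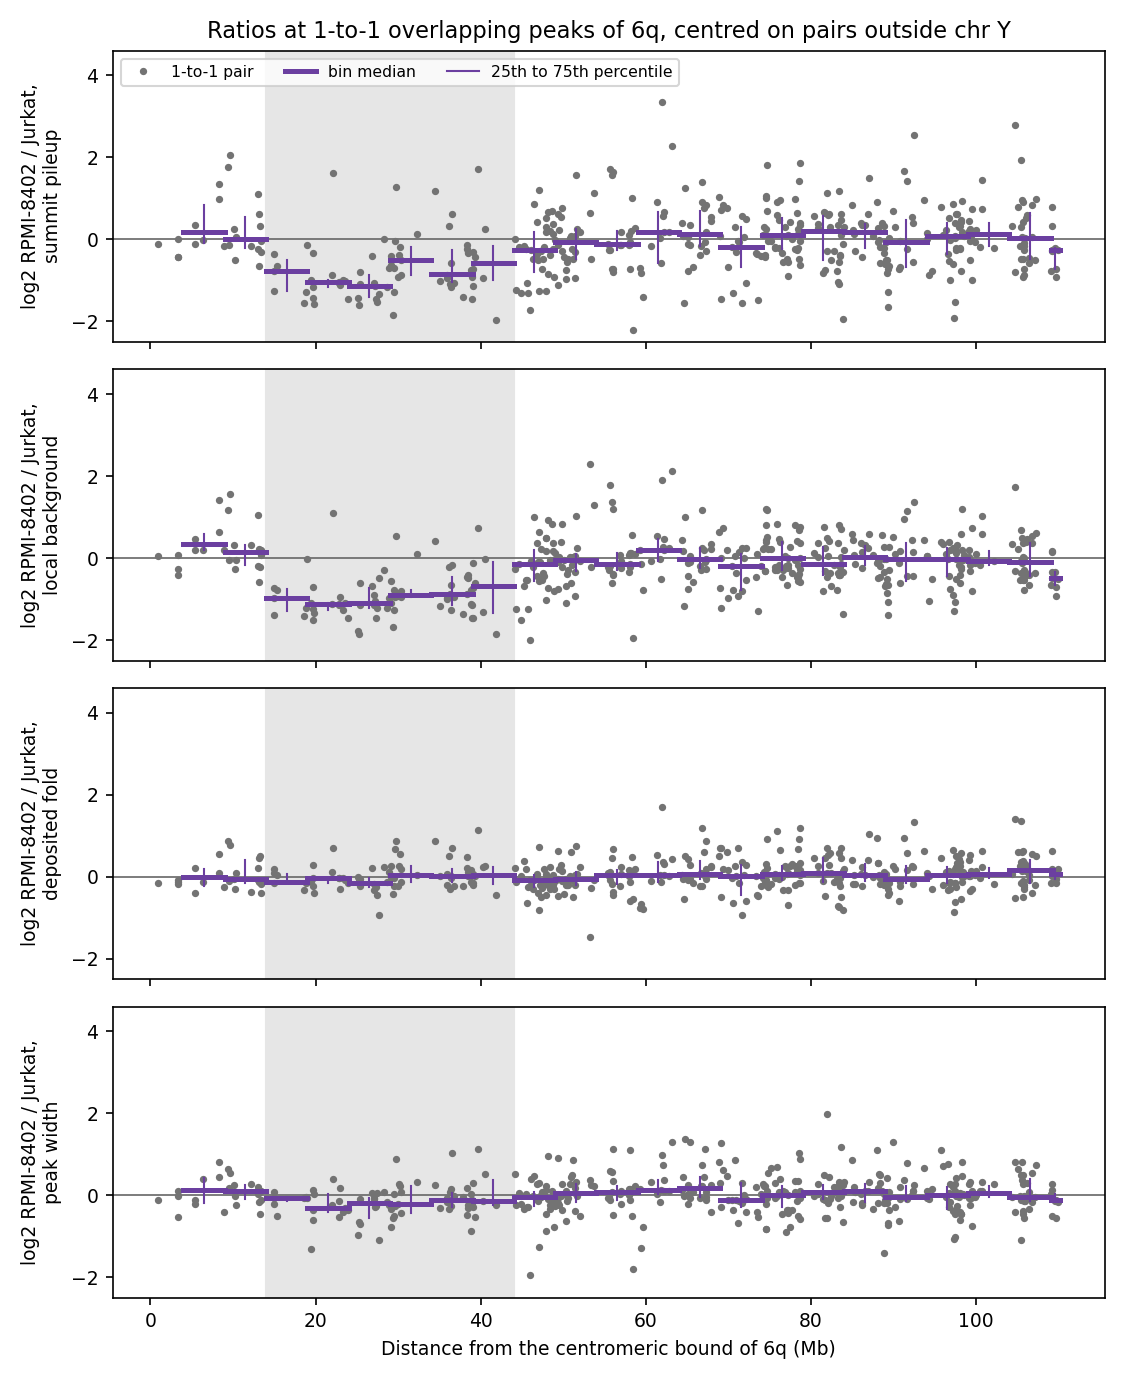
Log2 ratios of RPMI-8402 to Jurkat at the 436 pairs of 6q for pileup, local background, deposited fold and width, centred on the genome's pairs outside chromosome Y, against the distance in Mb from the lower bound of the arm. Grey points are pairs, thick lines are medians of 5-Mb bins with at least 5 pairs and thin lines the 25th to 75th percentile. The ratios of pileup and background drop in the shaded stretch at 14 to 44 Mb, while that of the fold stays near 0.

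Strong pairs showed the shift most uniformly. All 39 pairs of the stretch with a Jurkat pileup of at least 100 had a centred ratio below 0, with medians of 72 in RPMI-8402 and 179 in Jurkat and a log2 ratio of −1.12 (−1.34 to −0.86). Choosing pairs by their Jurkat pileup lowers the ratio everywhere, and the background of pairs below 0 was 73.6% under this choice. The rest of 6q had 95 of 132 such pairs below 0 (72.0%) and a log2 ratio of −0.26. Choosing by the geometric mean of both pileups, at least 60, gave 42 of 43 pairs below 0 in the stretch (background 59.5%) with a log2 ratio of −1.06 (−1.27 to −0.74), and −0.20 over 165 pairs on the rest of 6q. Weaker pairs of the stretch, with a geometric mean under 60, had a log2 ratio of −0.42 (−0.96 to −0.01) over 31 pairs, against 0.17 on the rest of 6q. A pair needs a called peak in both lines, so weak Jurkat sites whose RPMI-8402 signal was too low for a call cannot enter these pairs.

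The lower edge of the stretch fell in a gap between pairs. The last pair before it, RPMI-8402 peak at positions 74442795 to 74443370, had a pileup of 19 in RPMI-8402 and 22 in Jurkat, a centred log2 ratio of −0.04. The 3 pairs before that one were mixed, with 69 in RPMI-8402 and 121 in Jurkat at 74171427 to 74172125 (−0.64), 161 and 145 at 74230369 to 74231625 (0.32), and 104 and 144 at 74362973 to 74364358 (−0.30). The first pairs inside, at 75918533 to 75919059 and 75953085 to 75953826, had 20 against 29 and 39 against 105, with ratios of −0.37 and −1.26. The first 13 pairs inside, up to 82956999 to 82957964 with 53 against 109, were all below 0, and the unbroken run of pairs below 0 that they belong to began at 74.4 Mb with the last 2 pairs outside. After 1 exception, the next 17 pairs, from 83.8 to 88.7 Mb, were below 0 without a break, at a median of −1.12. An unbroken run of 11 pairs below 0 also lay outside the stretch, from 149.9 to 150.4 Mb, at a median of −0.59.

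At the upper edge, low pairs also continued beyond the stretch. The last pair of the stretch, at 102865195 to 102865876, had a pileup of 35 in RPMI-8402 and 155 in Jurkat, a ratio of −1.98. The next pair, at 105152854 to 105153481, had 25 against 28 and a ratio of 0.01. Beyond it, low pairs alternated with pairs near 0. The pair at 105307269 to 105307965 had 94 in RPMI-8402 and 248 in Jurkat (−1.23), that at 105584373 to 105585136 had 36 and 46 (−0.18), and that at 105850544 to 105851544 had 47 and 130 (−1.30). At 106773263 to 106773827 the pileups were 76 and 213 (−1.32), and at 106968055 to 106968461 they were 15 and 56 (−1.73). The bin at 105 to 110 Mb as a whole had medians of 53 in RPMI-8402 and 66 in Jurkat, a ratio of −0.26 (−0.79 to 0.19) over 35 pairs.

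Of the 74 pairs in the stretch, 9 had a centred log2 ratio of 0 or more. The single-site ratios that follow are linear and centred, that is, the ratio of the pileups divided by the genome's median ratio, so they exceed the plain quotient of the printed pileups. RPMI-8402 exceeded Jurkat most at 100676613 to 100677347, with a pileup of 35 against 12, a ratio of 3.28 (95% exact interval 1.66 to 6.94). At 83073226 to 83074512 the pileups were 57 in RPMI-8402 and 21 in Jurkat, a ratio of 3.05 (1.82 to 5.30), inside the run of low pairs on both sides. The pairs at 90754453 to 90755091 and 95494625 to 95495369 had 28 against 13 and 34 against 17, ratios of 2.42 (1.21 to 5.10) and 2.25 (1.22 to 4.29). The deposited fold was also higher in RPMI-8402 at these 4 sites, for example 9.40 against 5.02 at the first. The strongest exception in RPMI-8402, at 93327417 to 93328160, had 94 in RPMI-8402 and 96 in Jurkat, so its pileup was slightly lower in RPMI-8402 before centring, and its centred ratio was 1.10 (0.820 to 1.48).

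**Figure D4:**
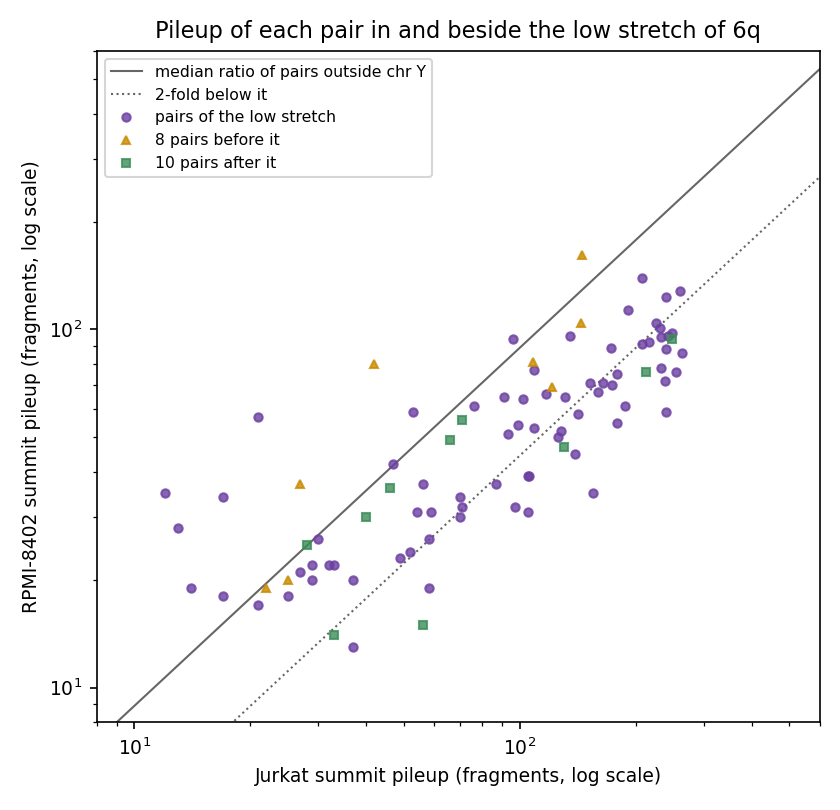
Summit pileup in RPMI-8402 (vertical) against Jurkat (horizontal), both on log scales, for the 74 pairs of the low stretch, the 8 pairs before it and the 10 pairs after it. The solid line is the median ratio of the genome's pairs outside chromosome Y and the dotted line lies 2-fold below it, and pairs of the stretch with a Jurkat pileup of at least 100 all lie below the solid line.

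Other chromosomes had low stretches too. The next longest runs of consecutive bins at −0.5 or less held 3 bins each and lay on chromosome 13, at 100 to 115, 40 to 55 and 20 to 35 Mb, with median ratios of −0.73, −0.70 and −0.62. This order depends on the threshold. At −0.4 or less, the longest run was on chromosome 13, with 7 bins from 20 to 55 Mb, and that on 6q kept its 6 bins. A fold ratio near 0 beside a low background ratio was not particular to 6q. In the chromosome 13 runs at −0.5 or less, in the order given, the median log2 fold ratios were −0.04, −0.08 and −0.06. Their median log2 background ratios were −0.67, −0.74 and −0.64.

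Outside the stretch, single sites differed between the lines in both directions. The largest pileup ratio of the arm was at 122931066 to 122932020, with 126 in RPMI-8402 and 14 in Jurkat, a centred ratio of 10.1 (5.82 to 19.1), and folds of 13.2 and 4.78. The site at 165722481 to 165723231 had 105 against 17, a ratio of 6.95 (4.14 to 12.4), and that at 153451998 to 153453329 had 115 against 22, a ratio of 5.88 (3.70 to 9.75). At 124123639 to 124125356 the pileups were 91 in RPMI-8402 and 21 in Jurkat, but the folds were close, 6.81 and 5.98, and the peak was 1718 bp wide in RPMI-8402 and 673 bp in Jurkat. The site at 70576891 to 70577793 lay below the stretch and had 104 in RPMI-8402 and 28 in Jurkat, with a centred ratio of 4.18 (2.73 to 6.59).

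The lowest ratio of the arm was at 119399877 to 119400291, with a pileup of 16 in RPMI-8402 and 83 in Jurkat, a ratio of 0.217 (0.118 to 0.373). The peak there was 415 bp wide in RPMI-8402 and 1395 bp in Jurkat. The sites at 144904168 to 144904649 and 158254805 to 158255117 had 17 against 73 and 11 against 47, with ratios of 0.262 (0.145 to 0.449) and 0.263 (0.123 to 0.515). Of the 5 lowest, 2 lay in the stretch, at 102865195 to 102865876, given above, and at 90348144 to 90348765, with 59 in RPMI-8402 and 239 in Jurkat and a ratio of 0.278 (0.205 to 0.371).

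The 8 strongest RPMI-8402-only peaks of 6q by −log10 q had pileups of 71 to 106. First was 118365126 to 118365704, where the pileup was 106 (95% Poisson interval 86.8 to 128), the fold was 13.7 no Jurkat peak lay within 367863 bp. A neighbour at 118228009 to 118228849 had a pileup of 84, and the same stretch of DNA held no Jurkat peak within 230746 bp of it. The peaks at 154831128 to 154832060 and 127439285 to 127440217 had pileups of 106 and 94, but the second lay 2099 bp from a Jurkat peak with a pileup of 20. The others lay at 143497361 to 143498123 (pileup 80), 123110230 to 123111688 (84), 145199805 to 145200784 (71) and 94128983 to 94129750 (72). Of the 8, the last alone was in the 75 to 105 Mb stretch, and 607979 bp separated it from the closest Jurkat peak.

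The 8 strongest Jurkat-only peaks had pileups of 92 to 132. They were led by 74078992 to 74079846, where the pileup was 131 (110 to 155) and the fold 17.1, at 52168 bp from the nearest RPMI-8402 peak and below the stretch. Within the stretch lay 79356572 to 79357470, with a pileup of 132 (110 to 157) and no RPMI-8402 peak within 219496 bp, and 80246814 to 80247407, with a pileup of 93 (75.1 to 114). The other 5 lay beyond it, at 113201000 to 113201680 (pileup 117), 166755761 to 166756545 (125), 121192434 to 121193349 (115), 119635124 to 119636163 (124) and 169956894 to 169957574 (92). The peaks at 119635124 and 166755761 had RPMI-8402 peaks with pileups of 25 and 14 within 7289 and 7950 bp.

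Line-only regions also occurred in rows along the arm. Runs of at least 5 consecutive Jurkat-only regions numbered 6 and held 40 of the 1068 merged regions (3.75%, background 1.61%). Those of RPMI-8402-only regions numbered 4 and held 24 (2.25%, background 2.67%). With both lists restricted to a −log10 q of 10 or higher, 0 Jurkat-only and 2 RPMI-8402-only runs were left. Of the 6 Jurkat-only runs, 5 began in the stretch. The longest held 10 regions at 103170101 to 105119491, with pileups of 9 to 21, and the next held 7 regions each at 100422600 to 100634726 (pileups 13 to 31) and 101841211 to 102838706 (10 to 28). These 3 runs fall in the bin where RPMI-8402 had 9 peaks in all, apart from the end of the first. The longest RPMI-8402-only runs held 7 regions each, at 124150888 to 124669934 with pileups of 11 to 29 and at 155864512 to 156712347 with pileups of 14 to 46. A run of 5 RPMI-8402-only regions lay inside the stretch at 93872820 to 94980211, with pileups of 12 to 72, and another of 5 lay at 64727101 to 65422961.

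The longest interval of 6q without an RPMI-8402 peak, 102865877 to 105152853, spanned 2.29 Mb and held 10 Jurkat peaks with pileups of up to 21. The next, at 61913519 to 64093803 and 77067101 to 78992569, spanned 2.18 and 1.93 Mb and held 3 and 5 Jurkat peaks. In Jurkat the longest was 93521004 to 95494706, 1.97 Mb with 5 RPMI-8402 peaks, which lies in the same stretch. The interval at 67806042 to 69053981, 1.25 Mb, had a peak in neither line. That at 92097773 to 93327406, 1.23 Mb, held 1 RPMI-8402 peak with a pileup of 16.

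At the scale of 1 Mb, windows chosen after their values were seen showed local differences that the 5-Mb bins average out. The window at 156 to 157 Mb held 10 RPMI-8402 peaks and 1 Jurkat peak, and that at 124 to 125 Mb held 8 and 2. Jurkat exceeded RPMI-8402 at 86 to 87 Mb, with 5 RPMI-8402 and 18 Jurkat peaks, at 100 to 101 Mb and 106 to 107 Mb, with 5 and 16 in each, and at 150 to 151 Mb, with 11 and 21. In bins of 2 Mb, the pairs at 150 to 152 Mb had a median centred log2 pileup ratio of −0.58 over 14 pairs, and those at 152 to 154 Mb of 0.56 over 7. The 5-Mb bin that covers both had a median of −0.07.

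The strongest sites of the arm were shared and lay outside the stretch. The highest pileup in both lines was at 153303654 to 153305362, with 308 in RPMI-8402 and 512 in Jurkat, a centred ratio of 0.677 (0.586 to 0.781). At 160182507 to 160183844 the pileups were 292 and 339, a ratio of 0.969 (0.826 to 1.14), and at 116421668 to 116422715 they were 252 and 305, a ratio of 0.930 (0.784 to 1.10). The site at 155635072 to 155636268, second in Jurkat, had 245 against 471, a ratio of 0.585 (0.499 to 0.684). For 153303654 and 155635072 the interval excludes 1, whereas for the sites at 160182507 and 116421668 it includes 1. These sites were picked for their pileup, and the intervals do not allow for that choice. Over all chromosomes, 73.6% of pairs with a Jurkat pileup of at least 100 had a centred ratio below 1, so 1 is not typical of strong pairs.

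The widest RPMI-8402 peak, 143265227 to 143268713, measured 3487 bp and covered 2 Jurkat peaks of 1100 and 1561 bp. The widest Jurkat peak, 139694541 to 139696949, measured 2409 bp and met an RPMI-8402 peak of 2382 bp with pileups of 202 in RPMI-8402 and 171 in Jurkat. Others among the widest were 107435384 to 107437778 in RPMI-8402, 2395 bp against 1659 bp in Jurkat, and 111195347 to 111197556 in Jurkat, 2210 bp over 2 RPMI-8402 peaks of 720 and 877 bp. The site at 147523599 to 147525573 was 2217 bp wide in RPMI-8402 and 1975 bp in Jurkat. Summits of the 436 pairs lay a median of 68.5 bp apart, against 67 bp over all pairs, and 49.5 bp in the stretch.

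At the lower bound of the arm, the last peaks left out were at 58776320 to 58779429 in RPMI-8402 and 58776291 to 58779438 in Jurkat, with pileups of 1068 and 983. The first peaks included were at 61912920 to 61913518 in RPMI-8402 and 61912908 to 61913535 in Jurkat, with pileups of 57 and 69.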

How the data were processed

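The authors deposited 1 peak list per library in the narrowPeak layout. The submitters' processing notes name Bowtie2, Picard, SAMtools, MACS2 2.1.1.2016030 and hg19, but no parameters. Per the labels' protocols reads were paired-end. How reads were filtered, duplicates treated or the Tn5 offset handled is not given in the sources used here. A deposited peak has a position and other fields, a fold enrichment (a ratio over background), a −log10 p-value, a −log10 q-value and a score equal to 10 times the deposited −log10 p-value, cut to whole numbers. These values are the authors' own.

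In MACS2 the fold is known to be the ratio of pileup and background with 1 added to each, and p a Poisson upper tail. From these, pileup and background were solved for every peak. The pileup was whole within 0.01 in 100% of peaks in both lists. The lowest background, read as the genome-wide one, was 1.96 fragments per base in RPMI-8402 and 1.59 in Jurkat. Depth is otherwise unknown. A pileup of 34, the 6q median in RPMI-8402, has a 95% Poisson interval of 23.5 to 47.5, and the Jurkat median of 32 one of 21.9 to 45.2.

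Overlaps of 1 bp were found with numpy 2.4.6 and pandas 2.3.3 under Python 3.11.15, and bedtools 2.31.1 counted as many. Intervals came from scipy 1.17.1. Scripts were tested on simulated data. Ratios of counts have exact conditional binomial intervals. Bins start at multiples of 5 Mb, and pairs fall in them by the mean of both summits. Ratios were centred on the median of pairs on chromosomes 1 to 22 and X. No list of artefact-prone regions was applied. The mitochondrial peaks were left out. The regions named were the 8 strongest line-only peaks and 5 most different pairs per direction, the 3 longest runs, intervals without peaks, strongest pairs and widest peaks per line, with other runs and pairs at the edges of the stretch and its exceptions added after their values were seen. The members, the rules and the bins were chosen with earlier results of these data known, and the stretch was delimited from its own values. Genes and motifs were not analysed, as no hg19 annotation or sequence was used, so no sequence is shown.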

Additional observations from a re-analysis of the deposited data

How the results depend on the processing

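Of 62 alternative values, 41 were counted as unmoved, 20 as moved and 1 as turned. Shares and peak number ratios were judged by their intervals given above, and counts by 1.5 times. The interval used for median log2 ratios is not given here and is not the percentile range printed above. The arm's pileup values of −0.31, −0.61 and −0.011 below counted as moved, yet lie within its range of −0.62 to 0.35. For medians, moved does not by itself mean outside the spread of the pairs. The share of RPMI-8402 peaks of 6q shared with Jurkat was 56.7% if the overlap had to cover 50% of each peak, 70.4% among peaks of −log10 q 10 or higher and 79.2% for the 10000 strongest peaks; for Jurkat peaks these were 50.8%, 64.9% and 77.9%. Without the 75 to 105 Mb stretch, an alternative added after seeing the data as were all those on the stretch, the peak number ratio of the arm turned to 1.01 and the median log2 pileup ratio was −0.011. Without centring, the arm's median log2 ratios were −0.23 for fold, 0.038 for width and −0.31 for pileup. Division by the genome background shifts the log2 pileup ratio of all pairs by −0.47; the arm's median was then −0.61 and that of the stretch −1.37, against −1.07 for the stretch without centring and −0.025 on the deposited fold. Bins at −0.5 or less numbered 2 in bins of 10 Mb, which are longer and, at both edges of the stretch, also cover DNA outside it. Under division by the genome background, bins at −0.5 or less numbered 12. Bins of 0.5 or more numbered 1 in bins of 2 Mb. At a −log10 q of 10 or higher, runs numbered 2 for RPMI-8402 and 0 for Jurkat, as weak regions drop out. The peak number ratio of the stretch was 0.739 for the 10000 strongest peaks, and from 0.509 to 0.619 when 1 bin was left out. Other causes were not tested. No paired analysis was possible because RPMI-8402 and Jurkat have a single library each, so that no replicate was left out either. Depth limits the weak peaks: calls missing at pileups near 10 in RPMI-8402 and 9 in Jurkat say little.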
